A study of Mus musculus with 10 samples.

Results

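The 9 genes described here set how glucose enters a muscle fibre and what becomes of the carbon near the ends of glycolysis. They were chosen by name, with earlier results of these data known: the glucose transporter gene Slc2a4, the hexokinase genes Hk1 and Hk2, the lactate dehydrogenase gene Ldhb, the monocarboxylate transporter genes Slc16a1 and Slc16a3, the glycerol phosphate dehydrogenase genes Gpd1 and Gpd2, and the fructose bisphosphatase gene Fbp2. They are 9 of 20009 genes with at least 1 count, and 6 of them had enough counts to be among the 5115 genes tested. RNA was measured by sequencing in soleus, a slow-twitch hindlimb muscle, and in tibialis anterior (TA), a fast-twitch one, from wild-type mice that carried no other named allele and received no named treatment. Each muscle was represented by 5 libraries, 3 from males and 2 from females, and the age of the mice was not among the details used here. The files contain 1 library of each muscle under each mouse code, and the main tests did not use this pairing. No label beyond these codes says that the libraries came from separate animals, so the p-values measure the spread between these samples.

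Glucose enters muscle through facilitative carriers, of which the Slc2a4 product (GLUT4) moves to the cell surface after insulin or contraction, and hexokinase then traps it as glucose 6-phosphate. Pyruvate made in the cytosol can be reduced to lactate, which leaves or enters the fibre with a proton through monocarboxylate transporters, or it can be oxidised in mitochondria. Cytosolic NADH can also be reoxidised by turning dihydroxyacetone phosphate into glycerol 3-phosphate, which a mitochondrial enzyme converts back in the glycerol phosphate shuttle.

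Library totals lay between 726075 and 961237 transcript counts, and 10971 to 15070 genes had a count, with the highest number in the second female soleus library and at most 11858 in the other 9. A single gene, Gm20594, took 22.1% to 28.4% of the counts in soleus and 17.2% to 20.9% in TA. Levels below are CPM, the gene's count scaled to a common library size, which is the library total times its TMM normalization factor (0.911 to 1.11). The 5 slow-fibre marker genes summed to 4343 to 5511 CPM in soleus and to 0 to 3.49 CPM in TA, and the 6 fast-fibre markers to 2693 to 5650 CPM in soleus and 21026 to 33680 CPM in TA, so both labels matched their markers. In whole muscle, fewer cells of a type and less RNA per cell cannot be told apart.

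Of the 6 members tested, 2 were higher in soleus (Ldhb and Slc16a1), 3 were higher in TA (Slc16a3, Gpd1 and Fbp2), and Hk2 did not pass. The test was edgeR's quasi-likelihood test with sex as a covariate and Benjamini-Hochberg adjustment over all 5115 genes, at an adjusted p under 0.05. By the same rule 22% of all tested genes passed, 11% as higher in soleus and 11% as higher in TA. The levels of 5 of the 6 did not overlap between the muscles, against 15.1% of all genes tested. The filter on counts keeps a gene that is well counted in a single muscle. Ldhb (at most 7.04 CPM in TA) and Slc16a3 (at most 4.92 CPM in soleus) entered through the muscle where they were high. Slc2a4, Hk1 and Gpd2, low in both, were left out, and the shares of all tested genes carry the same filter. The median log2 fold change of the 6 (soleus over TA, so that negative values are higher in TA) was -1.16, and that of all tested genes was 0.01.

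**Figure D1:**
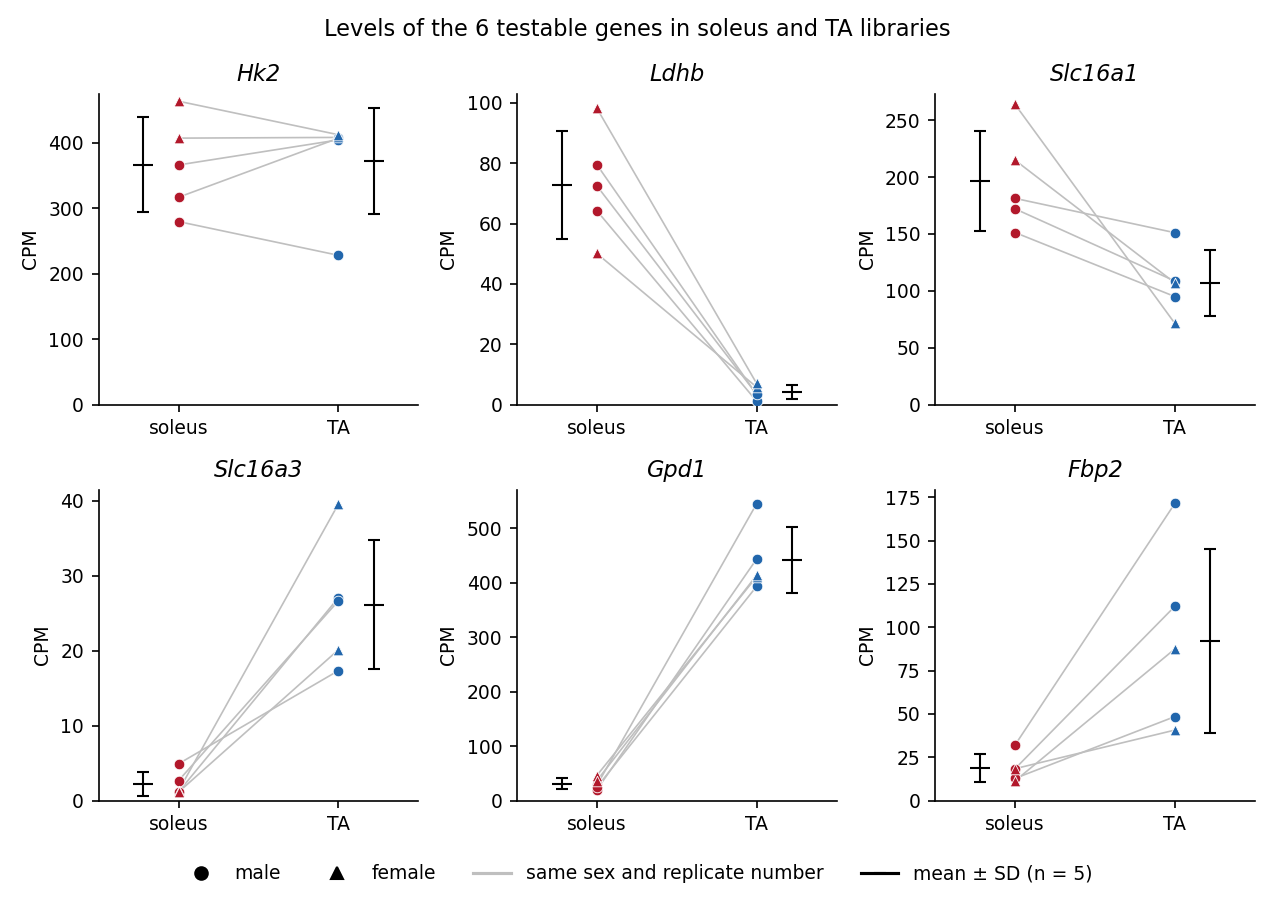
Levels (CPM, vertical axes from 0) of the 6 tested genes in the 5 soleus (red) and 5 TA (blue) libraries, with circles for males, triangles for females, grey lines joining libraries of the same sex and replicate number, and black bars for the mean ± SD. Gpd1, Slc16a3 and Fbp2 lie higher in every TA library than in any soleus library, Ldhb and Slc16a1 lie lower, and the Hk2 ranges overlap, with 279.7 to 464 CPM in soleus and 228 to 412 CPM in TA.

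The insulin-responsive transporter gene Slc2a4 (chr11:69942539-69948188, GRCm38) was nearly uncounted. The male soleus libraries held 1, 2 and 0 counts and the female ones 1 and 3, against 5, 5 and 2 in male TA and 1 and 2 in female TA. The totals of 7 and 15 counts gave a soleus-to-TA ratio of depth-scaled counts of 0.515, with a 95% exact interval of 0.178 to 1.34 that covers counting error only, so no difference was detectable at this depth. The deposited values are given per transcript. The 2524-base coding transcript Slc2a4-201 held 0 counts, and in the transcript set matched here it has no stretch of 31 bases of its own, that is, none that no other transcript holds. Of the 8 Slc2a4 transcripts, 4 lacked such a stretch and none of these 4 held a count, and the 22 counts lay on Slc2a4-203 (14), on the retained-intron form Slc2a4-207 (7) and on Slc2a4-205 (1). Slc2a4-204, with 13 such stretches, also held 0, and whether lacking them lowers a count was not tested. The low total covers the counted forms alone, and was not read as the level of Slc2a4 RNA in muscle.

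The hexokinase pair differed in how far it could be read. Hk1 (chr10:62268855-62379908), the hexokinase found in most tissues, had 1, 1 and 1 counts in male soleus and 2 and 4 in female soleus, against 1, 1 and 1 in male TA and 0 and 1 in female TA. Its 9 and 4 counts gave a ratio of 2.48 (exact counting interval from 0.693 up to 11.03), and no difference was detectable at this depth. Here too 8 of 20 annotated transcripts had no 31-base stretch of their own and held 0 counts. Only 3 of the 20 held any count, so most of those with such a stretch held 0 as well. Of the 13 counts, 10 lay on Hk1-202.

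Hk2 (chr6:82725025-82774454), the insulin-regulated hexokinase typical of muscle, was well counted, with 3157 of its 3162 counts on Hk2-201. Its levels were 317, 279.7 and 366 CPM in male soleus and 407 and 464 CPM in female soleus, and 407, 228 and 405 CPM in male TA and 408 and 412 CPM in female TA. The groups overlapped almost wholly, 4 TA libraries sat within 8 CPM of each other, and the second male stood below them and was also the lowest in soleus. Mean levels were 367 ± 72.6 CPM for soleus and 372 ± 80.5 CPM for TA (SD over 5 libraries), a log2 fold change of -0.03 (SE 0.17, adjusted p = 0.925, edgeR quasi-likelihood test). The 95% interval of the ratio ran from 0.757 to 1.26, so a larger shift in either direction lay outside it. Soleus was higher in 2 of the 5 mouse codes and TA in 3.

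Within each library the log2 ratio of Hk1 to Hk2 counts averaged -7.14 ± 0.45 for soleus and -8.08 ± 0.87 for TA (SD over 5 libraries; 0.5 was added to each count). The difference of 0.93 had an exact 2-sided permutation p of 0.0476 (0.0476 after adjustment over the 4 ratios described here). It rests on at most 4 Hk1 counts in a library. The adjusted exact p was 0.125 with libraries paired by mouse code, 0.0556 with 1 added to each count and as much as 0.111 when 1 library was left out. The difference did not pass in 11 of 14 alternative analyses (adjusted exact p from 0.0556 to 0.6).

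Genes of lactate handling differed in opposite directions: the lactate dehydrogenase gene and the transporter gene known from oxidative fibres were higher in soleus, and their glycolytic counterparts were higher in TA. Ldhb, which encodes the H subunit of lactate dehydrogenase, the form abundant in heart, lies at chr6:142490249-142507957. Its promoter window, shown as the first of the members that differed, is the 250 bases before the RefSeq transcription start (chr6:142507958-142508207, minus strand, GRCm38.p6). The window holds none of the 4 motifs searched on both strands. These were the E-box CANNTG, the MEF2 site, the hypoxia-factor core ACGTG and the GC box GGGCGG.
Ldhb promoter: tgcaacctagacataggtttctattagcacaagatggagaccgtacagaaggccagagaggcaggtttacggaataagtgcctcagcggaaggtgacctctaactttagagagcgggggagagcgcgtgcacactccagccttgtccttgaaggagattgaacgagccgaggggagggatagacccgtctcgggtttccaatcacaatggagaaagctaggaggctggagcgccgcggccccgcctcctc

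Over all 32851 RefSeq windows of this length, 66.2% held an E-box, 0.508% a MEF2 site, 16.6% the ACGTG core and 32.7% the GC box. Windows were listed for 7 of the 9 members, all but Slc2a4 and Gpd1, and none of the 7 held a MEF2 site. An ACGTG core can overlap an E-box, as in CACGTG, which contains the core on both strands. A match describes letters in the window and is not a measured binding site.

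Ldhb stood at 79.5, 64.2 and 72.5 CPM in male soleus and 50.1 and 98.2 CPM in female soleus, against 3.38, 1.16 and 3.47 CPM in male TA and 5.82 and 7.04 CPM in female TA. Every soleus library was at least several times above every TA library, and the lowest and highest soleus values were both from females. The means were 72.9 ± 17.9 and 4.17 ± 2.30 CPM (SD, n = 5 each), and the log2 fold change was 4.09 (SE 0.36), or 17.0-fold higher in soleus with a 95% interval of 9.81 to 29.4 (adjusted p = 2.79e-06, edgeR quasi-likelihood test). The direction held in 5 of 5 mouse codes, and 307 of the 318 counts lay on Ldhb-201. TA held 19 of the counts, 1 to 7 in each library, so the size of the fold rests on few counts there.

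Its counterpart Ldha, which encodes the M subunit favoured in glycolytic muscle and is not one of the 9 genes, moved the other way. Ldha was at 15.2, 10.7 and 22.1 CPM in male soleus and 13.2 and 9.14 CPM in female soleus, against 47.4, 40.5 and 52.0 CPM in male TA and 59.3 and 54.3 CPM in female TA. The muscles did not overlap, and TA was 3.58-fold higher (log2 fold change -1.84, SE 0.25, adjusted p = 0.000165, edgeR quasi-likelihood test). The transcript Ldha-201 had no 31-base stretch of its own and 0 counts, and the 284 counts were spread over 9 of 15 transcripts. The 2 that held most of them moved alike, Ldha-214 with 25 counts in soleus and 105 in TA, and the retained-intron form Ldha-204 with 12 and 73. Another retained-intron form, Ldha-211, went the other way with 6 and 1. With protein-coding transcripts only, the log2 fold change was -1.68 (adjusted p = 0.00142, edgeR quasi-likelihood test).

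The log2 ratio of Ldhb to Ldha counts was 2.34, 2.51 and 1.69 in male soleus and 1.87 and 3.35 in female soleus. In TA it was -3.60, -4.56 and -3.70 in males and -3.23 and -2.86 in females. The sign differed between the muscles in all 10 libraries. A ratio of counts between genes carries their lengths and uncounted transcripts, so only its change between muscles was read. Even that change covers the counted transcripts alone, and whether the uncounted ones differ between the muscles was not tested. That change was 5.94 on the log2 scale, a 61.5-fold shift of the ratio (soleus 2.35 ± 0.65, TA -3.59 ± 0.64, SD, n = 5 each). The exact 2-sided permutation p was 0.00794, the smallest that 5 against 5 libraries can give, and 0.0106 after adjustment over the 4 ratios. With the libraries paired by mouse code, soleus was higher in 5 of 5 pairs and the adjusted exact p was 0.0833, which did not pass, as 5 pairs cannot give an unadjusted exact p under 0.0625.

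Slc16a1 (chr3:104638668-104658462) encodes MCT1, the transporter of high lactate affinity that oxidative fibres use to take lactate up. Slc16a3 (chr11:120948480-120960868) encodes MCT4, the transporter of glycolytic fibres that exports it. Their promoter windows are shown together because the pair changed in opposite directions. That of Slc16a1 (chr3:104638414-104638663, plus strand) has the E-box CACGTG, with the ACGTG core on both strands, and a GC box, and that of Slc16a3 (chr11:120948817-120949066, plus strand) has 2 ACGTG cores and a GC box but no E-box, all in capitals.
Slc16a1 promoter: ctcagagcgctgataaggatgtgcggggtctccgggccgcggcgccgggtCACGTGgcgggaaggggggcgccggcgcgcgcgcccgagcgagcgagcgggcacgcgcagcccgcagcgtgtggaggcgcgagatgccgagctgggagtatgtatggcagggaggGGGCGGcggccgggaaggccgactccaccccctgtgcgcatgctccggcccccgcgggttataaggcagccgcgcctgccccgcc
Slc16a3 promoter: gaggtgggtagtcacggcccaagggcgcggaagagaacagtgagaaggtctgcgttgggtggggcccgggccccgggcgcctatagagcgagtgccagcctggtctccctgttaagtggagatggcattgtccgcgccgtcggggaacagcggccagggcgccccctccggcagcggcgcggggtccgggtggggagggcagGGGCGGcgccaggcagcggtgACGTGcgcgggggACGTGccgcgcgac

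Slc16a1 was at 181, 151 and 172 CPM in male soleus and 215 and 264 CPM in female soleus, against 151, 95.0 and 109 CPM in male TA and 107 and 71.4 CPM in female TA. The muscles were only just apart: the lowest soleus library, the second male at 151.2 CPM, exceeded the highest TA library, the first male, at 151.1 CPM. The means were 197 ± 44.0 and 107 ± 29.0 CPM (SD, n = 5 each), 1.83-fold higher in soleus with a 95% interval of 1.33 to 2.52 (log2 fold change 0.87, SE 0.21, adjusted p = 0.0113, edgeR quasi-likelihood test). The gene has a single annotated transcript, and soleus was higher in 5 of 5 mouse codes. In a fit of the males alone the difference was 0.52 and did not pass (adjusted p = 0.0675, edgeR quasi-likelihood test).

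Slc16a3 was at 1.17, 2.68 and 4.92 CPM in male soleus and 1.32 and 1.14 CPM in female soleus, which is 1 to 4 counts in each library. In TA it was at 27.1, 26.6 and 17.3 CPM in males and 39.6 and 20.1 CPM in females. No soleus library came near the lowest TA library. The means were 2.24 ± 1.62 and 26.1 ± 8.58 CPM (SD, n = 5 each), 11.02-fold higher in TA (log2 fold change -3.46, SE 0.51, adjusted p = 9.60e-05, edgeR quasi-likelihood test), on 9 counts in soleus and 116 in TA. Of these 125 counts 116 lay on the transcript Slc16a3-208, while the coding transcript Slc16a3-202, with no 31-base stretch of its own, held 0.

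The log2 ratio of Slc16a1 to Slc16a3 counts was 6.70, 5.50 and 4.96 in male soleus and 6.77 and 7.27 in female soleus. In TA it was 2.46, 1.81 and 2.61 in males and 1.42 and 1.80 in females. The lowest soleus ratio was above the highest TA ratio. The means, 6.24 ± 0.96 and 2.02 ± 0.50 (SD, n = 5 each), differed by 4.22, an 18.6-fold shift (exact 2-sided permutation p = 0.00794, adjusted p = 0.0106). Paired by mouse code, the adjusted exact p was 0.0833 and did not pass. With 1 added to each count in place of 0.5, the difference was 3.92, on 1 to 4 Slc16a3 counts in each soleus library.

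**Figure D2:**
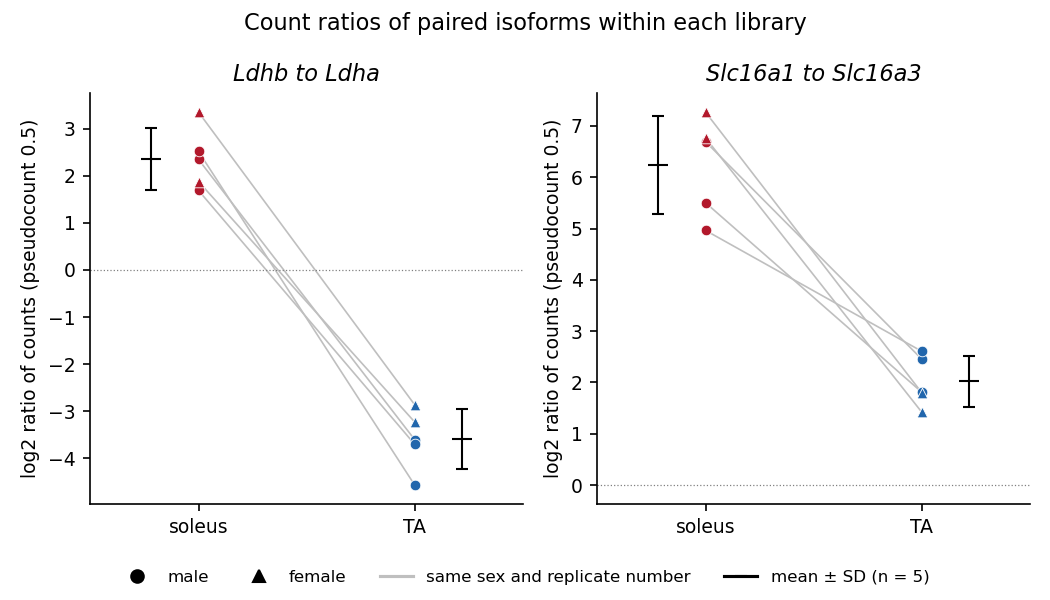
Log2 ratio of the counts of Ldhb to Ldha and of Slc16a1 to Slc16a3 in each library (vertical axes, 0.5 added to each count), with circles for males, triangles for females, grey lines joining libraries of the same sex and replicate number, and black bars for the mean ± SD. Both ratios are higher in all 5 soleus libraries (at least 1.69 and 4.96) than in any TA library (at most -2.86 and 2.61).

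Of the glycerol phosphate shuttle, only the RNA of the cytosolic enzyme could be read, which does not measure the shuttle itself. Gpd1 (chr15:99717515-99725005), which reduces dihydroxyacetone phosphate with NADH, was at 19.9, 28.1 and 24.6 CPM in male soleus and 46.1 and 36.5 CPM in female soleus. In TA it was at 443, 544 and 393 CPM in males and 411 and 413 CPM in females. TA exceeded soleus in every pair by a wide margin, the TA values lay within 1.5-fold of each other, and both female soleus libraries were above all 3 male ones. The means were 31.05 ± 10.4 and 441 ± 60.6 CPM (SD, n = 5 each), 14.4-fold higher in TA (log2 fold change -3.85, SE 0.20, adjusted p = 1.25e-07, edgeR quasi-likelihood test). All 2092 counts lay on the transcript Gpd1-201.

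Gpd2 (chr2:57237635-57370719), the mitochondrial enzyme that completes the shuttle, held 1 count in all 10 libraries, in the second female TA library, so no fold is given. Its coding transcripts Gpd2-201 and Gpd2-207 had no 31-base stretch of their own and 0 counts, and the count lay on Gpd2-202. Whether the mitochondrial side of the shuttle differs between the muscles could not be read from these counts. The log2 ratio of Gpd1 to Gpd2 counts, 5.62 ± 0.44 for soleus and 9.30 ± 0.69 for TA (SD over 5 libraries), differed by -3.68 (exact 2-sided permutation p = 0.00794, adjusted p = 0.0106, and 0.0833 when paired by mouse code). With 0 or 1 Gpd2 counts per library it restates the Gpd1 difference.

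The patterns nearest to that of Gpd1 were taken from 2989 other tested genes averaging 20 CPM or more, by the root mean square difference of centred log2 CPM over the 10 libraries. They were those of Cib2, which encodes a calcium- and integrin-binding protein (difference 0.34, log2 fold change -3.69, SE 0.32), and Phkg1, a catalytic phosphorylase kinase subunit found in muscle (0.41, log2 fold change -3.27, SE 0.17). For Ldhb the nearest were Idh2, the mitochondrial NADP-dependent isocitrate dehydrogenase (0.28, log2 fold change 3.85, SE 0.33), and Myl12a, a myosin regulatory light chain (0.41, log2 fold change 3.19, SE 0.29).

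Fbp2 (chr13:62836877-62858422) encodes the muscle form of fructose 1,6-bisphosphatase, which opposes phosphofructokinase. Its window (chr13:62858401-62858650, minus strand) is shown as that of the remaining member that changed. It holds 3 E-boxes, of which the last is CACGTG with the core on both strands, and no GC box.
Fbp2 promoter: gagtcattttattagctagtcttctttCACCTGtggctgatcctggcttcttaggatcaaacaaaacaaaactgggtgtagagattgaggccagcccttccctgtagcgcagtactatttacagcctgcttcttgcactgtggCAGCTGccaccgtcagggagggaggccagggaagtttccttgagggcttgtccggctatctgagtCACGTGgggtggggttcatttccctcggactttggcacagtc

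Fbp2 was at 12.9, 32.1 and 18.4 CPM in male soleus and 18.5 and 11.4 CPM in female soleus, against 48.5, 171 and 112 CPM in male TA and 40.7 and 87.5 CPM in female TA. The muscles did not overlap, but TA spread about 4-fold among its own libraries, and the second male was highest in both muscles. The means were 18.7 ± 8.17 and 92.1 ± 53.1 CPM (SD, n = 5 each), 4.90-fold higher in TA (log2 fold change -2.29, SE 0.38, adjusted p = 0.00087, edgeR quasi-likelihood test). All 484 counts lay on Fbp2-201, and TA was higher in 5 of 5 mouse codes.

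Annotated genes that overlap a member were Hk1os, Gm17034 (over Hk2), Gm43581 and Gm43585 (over Slc16a1), Gm16537 (over Gpd1), A930012O16Rik and Gm13535 (over Gpd2). Of these 7, Gm13535 held 2 counts, both in soleus, and the other 6 held 0. Whether the authors' counting used strand is not given in the sources used here.

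The other genes of these steps were 54 in 6 lists, of which 23 were tested, 1 was higher in soleus and 6 were higher in TA. The median log2 fold change of the 23 was -0.33, beside 0.01 for all genes tested, of which 11% passed in each direction. Of 8 other genes of glucose entry only Slc2a12, a further glucose carrier, was tested, with a log2 fold change of 0.09 (SE 0.27, adjusted p = 0.865, edgeR quasi-likelihood test). Slc2a1, the basal carrier GLUT1, had 31 counts in soleus and 14 in TA and was not tested, and 22 of the 31 lay in the second female soleus library.

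Of 15 genes that move GLUT4-bearing vesicles, 7 were tested, none was higher in soleus and 2 were higher in TA. Tbc1d1, a Rab-GTPase activator that holds these vesicles back until it is phosphorylated, was at 5.85, 2.68 and 3.69 CPM in male soleus and 6.59 and 1.14 CPM in female soleus. In TA it was at 30.4, 22.01 and 20.8 CPM in males and 31.4 and 8.05 CPM in females. The second female TA library was the lowest of its muscle and still above every soleus library, and the log2 fold change was -2.46 (SE 0.51, adjusted p = 0.00247, edgeR quasi-likelihood test). Rab10, a small GTPase of the same route, was 1.32-fold higher in TA (log2 fold change -0.41, SE 0.12, adjusted p = 0.0278, edgeR quasi-likelihood test). That call was lost in 11 of 21 alternative analyses (adjusted p from 0.0501 to 0.158), among them those without the first or the second male or the second female soleus library, or without the second or the third male or either female TA library.

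Among 8 other genes of lactate and pyruvate, 3 were tested and Ldha alone passed, as higher in TA. Mpc2, a subunit of the mitochondrial pyruvate carrier, had a log2 fold change of 0.06 with a 95% interval of the ratio of 0.826 to 1.32. Bsg, the basigin chaperone that carries MCT1 and MCT4 to the membrane, had 10 counts in soleus and 16 in TA and was not tested. Of these 26 counts 14 lay on Bsg-205, which has 9 stretches of 31 bases of its own, and 6 on Bsg-201, which has 377. The low total was not read as the level of Bsg RNA, and its cause was not tested.

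None of the 4 tested among 7 other genes of glycerol phosphate passed in either direction with edgeR, and 1 of them, Gpat4, had an unadjusted p under 0.05 (log2 fold change 0.41, SE 0.18). Gpd1l, a relative of Gpd1 with the same catalytic domain, averaged 11.8 ± 3.21 CPM for soleus and 9.95 ± 4.92 CPM for TA (SD over 5 libraries; log2 fold change 0.31, SE 0.37, adjusted p = 0.61, edgeR quasi-likelihood test), and the interval of its ratio was 0.713 to 2.16. Gpam, which adds the first acyl chain to glycerol 3-phosphate, had a log2 fold change of -0.12 (SE 0.29).

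The malate-aspartate shuttle, the alternative route for cytosolic NADH, had 5 of 7 genes tested, 1 higher in each muscle. Mdh1, the cytosolic malate dehydrogenase, was at 516, 567 and 529.7 CPM in male soleus and 478 and 363 CPM in female soleus, against 355, 301 and 318 CPM in male TA and 259 and 145 CPM in female TA. The muscles did not overlap, with the second female lowest in both, and soleus was 1.81-fold higher (log2 fold change 0.86, SE 0.17, adjusted p = 0.00331, edgeR quasi-likelihood test). Slc25a12, a mitochondrial aspartate-glutamate carrier, was 2.12-fold higher in TA (111 ± 13.02 against 237 ± 42.2 CPM, SD, n = 5 each; log2 fold change -1.08, SE 0.13, adjusted p = 0.000105, edgeR quasi-likelihood test).

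Of 9 genes around fructose bisphosphate, 3 were tested and 2 were higher in TA, the same direction as Fbp2, whose product opposes that of Pfkm. Pfkm, the muscle phosphofructokinase, had a log2 fold change of -1.72 (SE 0.15, adjusted p = 5.07e-06) and Aldoa, the muscle aldolase, of -1.92 (SE 0.17, adjusted p = 9.10e-06; both edgeR quasi-likelihood tests).

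**Figure D3:**
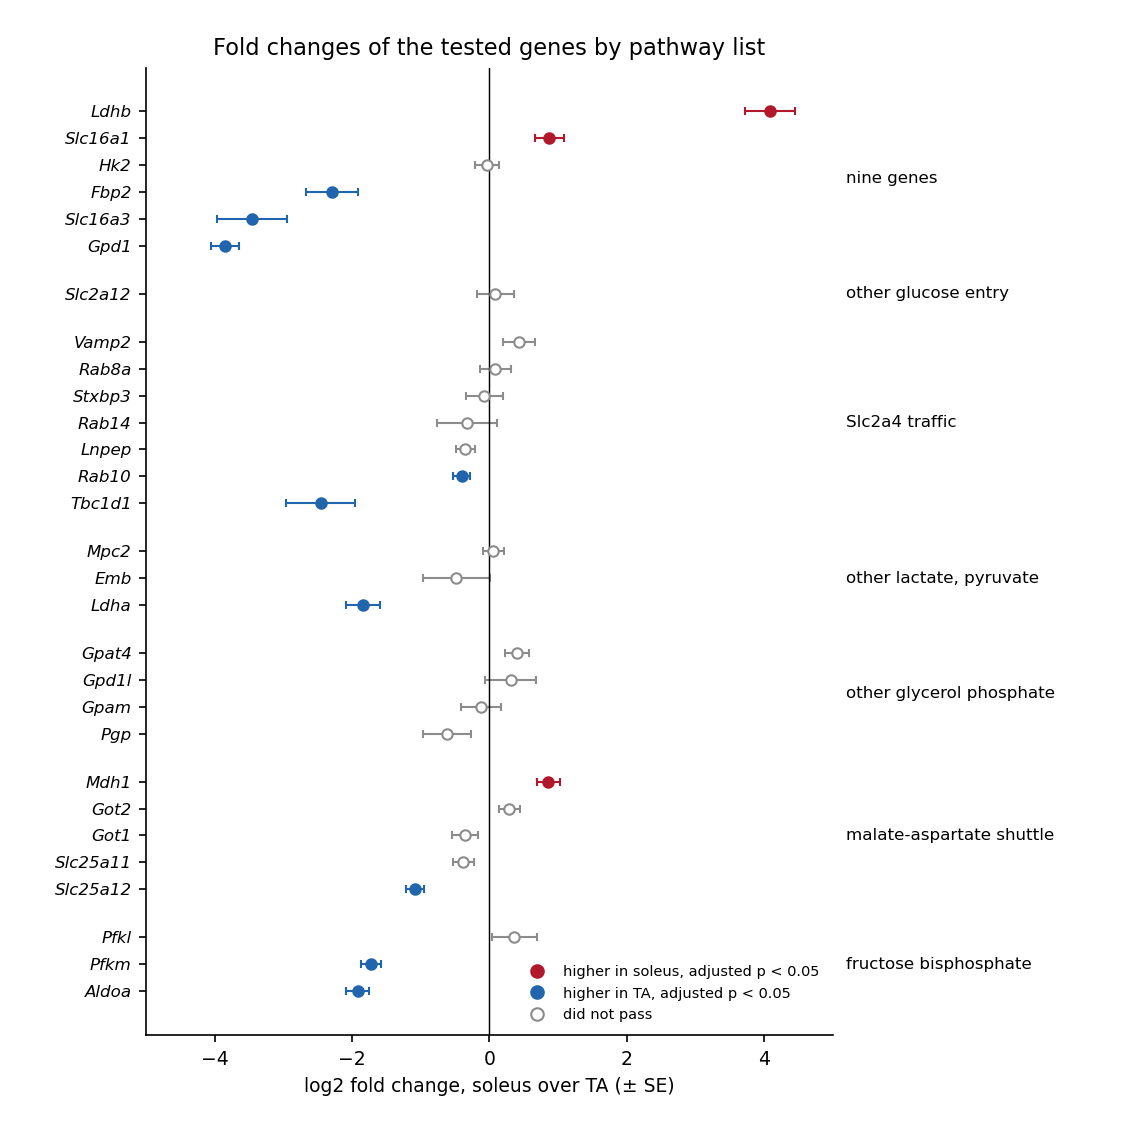
Log2 fold change (horizontal axis, soleus over TA, bars ± SE) of the 6 tested members and the 23 tested genes of the other lists, with red for genes higher in soleus, blue for genes higher in TA and open grey circles for genes that did not pass. The points range from 4.09 for Ldhb to -3.85 for Gpd1, and among the other lists Tbc1d1 at -2.46 lies lowest.

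Sex was the other labelled factor. Of the 6 tested members, 0 differed between females and males in soleus, 0 in TA, and 0 in the size of the sex difference between muscles, by edgeR and by DESeq2, where 0.547%, 0.645% and 0% of all tested genes passed edgeR's test. Without adjustment, 1, 0 and 2 members had a p under 0.05. These were Gpd1, which was higher in female than in male soleus by 0.77 on the log2 scale (SE 0.25, adjusted p = 0.157, edgeR quasi-likelihood test), and, for the difference between muscles, Gpd1 (0.93, SE 0.32) and Slc16a1 (0.92, SE 0.36), both with an adjusted p of 0.709 by edgeR's quasi-likelihood test. For both genes the 2 female soleus libraries lay above the 3 male ones, as the library levels above show.

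Within each sex, from the fit of 4 separate group means, the muscle difference kept its direction for the 5 members that passed. Gpd1 was at -4.25 (SE 0.21) in males and -3.32 (SE 0.24) in females, and Ldhb at 4.68 (SE 0.51) and 3.50 (SE 0.46). Slc16a3 was at -2.97 (SE 0.58) in males and -4.44 (SE 0.96) in females, where soleus held 1 count per library. Slc16a1 was at 0.51 in males (SE 0.22, adjusted p = 0.172) and 1.43 in females (SE 0.28, adjusted p = 0.00972), and Fbp2 at -2.40 in males (SE 0.50, adjusted p = 0.0074) and -2.12 in females (SE 0.66, adjusted p = 0.0692), all by edgeR's quasi-likelihood test. A difference past the threshold in 1 sex only was not shown to differ between the sexes, since no member's interaction passed.

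**Figure D4:**
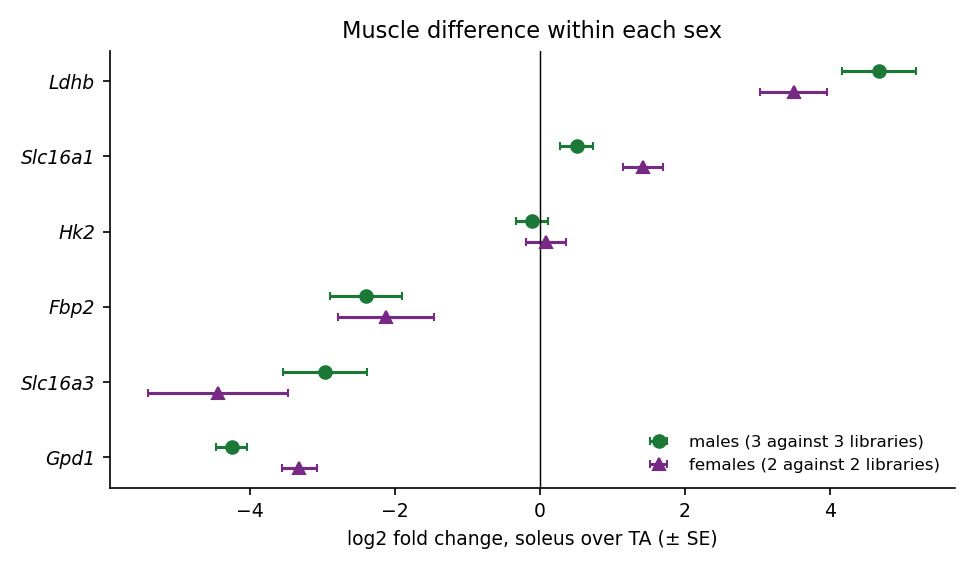
Log2 fold change (horizontal axis, soleus over TA, bars ± SE) of the 6 tested genes within males (green circles, 3 against 3 libraries) and within females (purple triangles, 2 against 2 libraries). Each gene but Hk2 keeps its side of 0 in both sexes, and Slc16a1 is nearest to 0 of these 5, at 0.51 in males.

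Markers of cells other than muscle fibres also differed between the muscles. Of 6 endothelial genes 3 were tested and all 3 were higher in TA. The summed level of the 6 was 250.4 to 306 CPM in soleus and 339 to 878 CPM in TA. The untested ones had few counts and were mixed. Pecam1 averaged 4.96 CPM in soleus and 4.21 CPM in TA, Tie1 2.18 and 1.15 CPM, and Tek 0.49 and 0.92 CPM. For smooth muscle and pericytes, 2 of the 3 tested of 5 genes were higher in TA (398 to 641 CPM in soleus and 587 to 1169 CPM in TA). Both of the tested genes among 6 adipocyte genes were higher in soleus (31.98 to 40.6 CPM against 3.02 to 10.5 CPM). Macrophage genes (69.7 to 127 CPM and 66.4 to 140 CPM) and Schwann cell genes (9.23 to 36.1 CPM and 10.1 to 22.1 CPM, with Sox10 at 0 throughout) had 1 tested gene each, which did not pass. Red cell genes ranged from 261 to 36848 CPM in soleus and from 1569 to 21794 CPM in TA with 0 of 6 passing. The part of these cell types in the results was not tested.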

How the data were processed

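RNA from soleus and TA was sequenced in 10 libraries prepared with a stranded kit. The authors deposited 1 table of transcript counts per library. Per the submitters' processing notes, bcl2fastq, Trimmomatic 0.32, FastQC and GRCm38.p4 were used, and the aligner and counter are not given in the sources used here. Of 40414 transcripts listed, 40359 were found in GENCODE M21 (GRCm38) by identifier, ignoring versions, 55 did not, and counts were summed to genes. Stretches of 31 bases that only 1 annotated transcript holds were counted in the same annotation. Promoters come from RefSeq (GRCm38.p6).

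Genes were filtered by filterByExpr over the 4 groups of muscle and sex, scaled by TMM and fitted with edgeR 4.0.16 in R 4.3.3 (sex and muscle as terms), and the script was tested on simulated data. CPM are counts divided by the library total times its TMM factor (0.911 to 1.11). Count ratios within libraries were compared by exact permutation (252 arrangements).  Depth limits what can be read: at 726075 to 961237 counts, a single count is about 1 CPM. Both muscles of each number carry the same mouse code in 5 of 5 cases, so blocking on the mouse was an alternative. Over genes their residuals from the group means correlated with r of 0.183 to 0.239 in the 3 males and 0.285 in the females (1 shared value). Other numbers gave at most -0.07. Centring on means of 2 or 3 libraries pushes these values below 0 when same numbers correlate, so they are no separate evidence of pairing. Other alternatives were DESeq2 1.42.0 (test and size factors), upper-quartile scaling, other filters, library sizes without Gm20594, Cep295 and mitochondrially encoded genes, protein-coding transcripts only, males only and leaving out each library. Fits within each sex were added after seeing the data.

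The members and gene lists were chosen with earlier results of these data known. Named genes are the 9 members, Ldha, Slc2a1, Bsg, Gpd1l and Mdh1 as counterparts, the 2 genes of each list with the smallest p among those passing in each direction, and the 2 genes nearest in pattern to Gpd1 and Ldhb. Other tested genes named beside them (Slc2a12, Mpc2, Gpam, Gpat4) were chosen after their values were seen. Aldoa names 2 gene identifiers, of which the one with more counts was used.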

Additional observations from a re-analysis of the deposited data

Results flagged for a closer look

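Hk2 was at 228 CPM in the second male TA library, and between 405 and 412 CPM in the other 4 TA libraries, a gap that was 0.957 of the group's range, where 0.71 is the 95% critical value of Dixon's test for 5 samples. The same library had the highest Gpd1 (544 CPM) and Fbp2 (171 CPM) of all 10.

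The log2 ratio of Gpd1 to Gpd2 counts was 8.10 in the second female TA library and 9.41 to 9.88 in the other 4 TA libraries. That library holds the only Gpd2 count of the data set.

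The number of genes with a count was 15070 in the second female soleus library and 11073 to 11858 in the other 4 soleus libraries. It also held 22 of the 31 soleus counts of Slc2a1. Without this library, Ldhb was at 3.95 and Gpd1 remained higher in TA, with all 5 members passing as before.

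These are 3 of 40 groups of 5 libraries examined, and chance alone sets apart about 1 in 20.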

How the results depend on the processing

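Over 21 alternative analyses the log2 fold change (soleus over TA) ran from 3.50 to 4.69 for Ldhb, -4.25 to -3.32 for Gpd1 and -4.44 to -2.95 for Slc16a3, all passing in each. It ran from -2.50 to -2.01 for Fbp2, which passed in all but the fit within females (adjusted p = 0.0692), and from 0.51 to 1.43 for Slc16a1, which did not pass in the males-only fit (adjusted p = 0.0675) or within males (adjusted p = 0.172). Members higher in soleus therefore numbered 1 in both of these analyses in place of 2. Hk2 ranged from -0.15 to 0.09 (adjusted p from 0.569 to 0.995). Leaving out each library in turn kept 2 members higher in soleus and 3 higher in TA, and gave 1 to 2 other pathway genes higher in soleus (2 without the second female soleus library) and 5 to 8 higher in TA. Tbc1d1 did not pass within females (adjusted p = 0.0933). Members passing in the sex comparisons numbered 0 in all alternatives run. All adjusted p-values in this paragraph are from the edgeR fits.

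With the mouse as a replicate block no member's call changed. The log2 ratio differences under this pairing were 5.94 (Ldhb to Ldha), 4.22 (Slc16a1 to Slc16a3), 0.93 (Hk1 to Hk2) and -3.68 (Gpd1 to Gpd2), with adjusted exact p of 0.0833, 0.0833, 0.125 and 0.0833, where 5 pairs cannot go below an unadjusted exact p of 0.0625. In males only they were 6.14, 3.43, 0.19 and -4.33, where 3 against 3 cannot go below an exact p of 0.1. The Hk1 to Hk2 difference was 0.73 with a pseudocount of 1, and leaving out 1 library gave 0.59 to 1.19 (adjusted exact p from 0.00794 to 0.111). Leaving out 1 library gave 5.70 to 6.13, 3.96 to 4.54 and -3.98 to -3.53 for the other 3 ratios. With a pseudocount of 1 these 3 differences were 5.70, 3.92 and -3.77.

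Without a filter on low counts the median of all genes moved to 0.25. Slc2a4, Hk1 and Gpd2 had 22, 13 and 1 counts over 10 libraries, too few for a test after the filter. In Slc2a4, Hk1, Gpd2, Ldha, Slc16a3, Bsg and Mdh1, annotated transcripts without sequence of their own held 0 counts. Other transcripts of these genes that have such sequence also held 0, and whether lacking it lowers a count was not tested. The totals of these genes, and the folds and ratios drawn from them, describe the counted transcripts. The cause of the differences between settings was not tested.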
